A study of Homo sapiens with 17 samples.

Results

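Newly made RNA was measured by TT-seq, transient transcriptome sequencing, in which a short pulse of a labelled nucleoside marks RNA made during the pulse and the labelled RNA is isolated and sequenced. The comparison described here sets cells after 4 h of auxin against cells without auxin, and it is 1 of 4 comparisons that the authors deposited side by side for 14538 genes. Of these genes, 13876 have an adjusted p in it and 662 do not, and these 662 have a mean count of 1 or less. The genes were taken by the name of the comparison alone, so nothing measured chose them. The TT-seq libraries are not among the 17 libraries labelled in the series, which are RNA-seq libraries, and no values per TT-seq library were used here. Each value below is therefore a pooled value of a group, and the spread between libraries enters only through the authors' standard error.

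The cells are HEK293T, a human embryonic kidney line, and in the INTS1-AID line both copies of INTS1 carry a miniAID tag. This tag is a degron through which auxin sends a protein to the proteasome. The labels give 500 µM auxin for the RNA-seq libraries, 3 with and 2 without auxin in the 4 h series, 3 with and 3 without in the 12 h series, and 3 untreated INTS1-AID and 3 untreated parental libraries. For TT-seq, the sources used here give no dose, labelling time or number of libraries. Parental cells with auxin are not among the groups, so the effect of auxin itself and that of losing INTS1 cannot be told apart. The same table holds a TT-seq comparison for INTS8 loss at 4 h, whose cells the labels used here do not describe.

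Integrator is a complex of Pol II (RNA polymerase II) that binds the paused polymerase near the start of genes. Its endonuclease module cuts the nascent RNA. On genes for small nuclear RNA (snRNA) this cut makes the 3' end, and on many mRNA genes it stops the polymerase before it elongates, while a PP2A phosphatase module removes phosphates that promote elongation. INTS1 is a large scaffold subunit, and INTS8 contacts the phosphatase. Total RNA reports what has accumulated, whereas new RNA reports what was made during the pulse.

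All log2 changes, adjusted p-values and mean counts below are from the authors' deposited table, in which the test was made with DESeq2, and a gene was called at an adjusted p under 0.05. The deposited table does not name its numerator. Its listed level per kb of transcript fitted the denominator of the fold over 433 genes, with a median error of 0.0011 in log2 units where each other reading gave at least 0.0687, and it fitted with equal numbers of libraries in both arms. The RNA-seq comparison at 4 h fitted in the same way with 2 libraries in the denominator, the number without auxin, and the new RNA changes run the same way as the RNA-seq changes. A positive log2 change is therefore read as higher with auxin. The RNA-seq comparison at 12 h fitted neither arm closely, and its direction was taken from its shared sign with that at 4 h. Levels are the listed value without auxin, in normalized counts per kb of transcript, and that value multiplied by the fold with auxin. Errors are standard errors implied by each log2 change and its p. No source used here ties the libraries to separate cultures, and the spread behind the p-values may be technical. In bulk RNA, fewer cells making a transcript and less of it made per cell cannot be told apart.

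With auxin, 1847 genes were called higher in new RNA and 1491 lower, which is 13.3% and 10.7% of the genes tested. Each count of list members below is to be read beside these 2 shares. The median log2 change of all tested genes was -0.01. The sources used here do not say how the counts were scaled between libraries. The changes are therefore relative, and a gain or loss of new RNA shared by all genes may not show in them. By the authors' own calls in their deposited table, which take a log2 change over 1 in size and an adjusted p under 0.001, 477 genes rose and 143 fell. The genes that the authors called as rises had a median log2 change of 1.52, and those called as falls had one of -1.19.

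**Figure D1:**
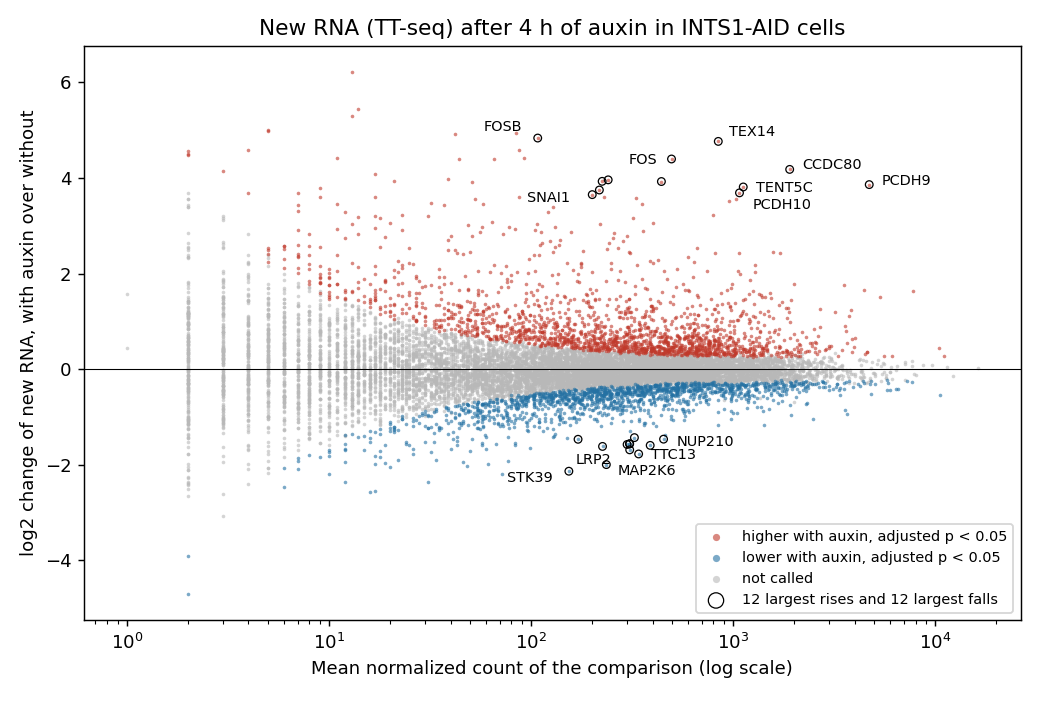
Each point is 1 of the 13876 tested genes, with the mean normalized count of the comparison on a log axis and the log2 change of new RNA, with auxin over without, on the other axis; red and blue points were called higher and lower. Circles mark the 12 largest rises, between 3.65 and 4.84, and the 12 largest falls, between -2.13 and -1.43, among called genes averaging 100 counts or more.

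The largest rises included genes for transcription factors and signalling proteins whose level without auxin lay under 64.5, the median of all tested genes. FOSB, a partner in the AP-1 transcription factor, had a level of 55.1 with auxin against 1.93 without (log2 change 4.84 ± 0.35, adjusted p = 5.58e-40). FOS (ENSG00000170345), the other early-induced AP-1 subunit in this set, lies at chr14:75278829-75282230 on the plus strand of hg38. Its level was 450 with auxin against 21.3 without (log2 change 4.40 ± 0.17). SNAI1, a transcription factor that represses epithelial genes, had a level of 218 with auxin against 17.3 without. ARC, a synaptic protein gene of the immediate early class, had a level of 138 with auxin against 10.2 without. HAP1, which binds huntingtin, had 103 with auxin against 6.79 without. In each of these genes the level with auxin was more than 12-fold that without.

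Long genes stood among the largest rises as well as short ones. TEX14, needed for the bridges between germ cells, spans 135 kb and had a level of 328 with auxin against 12.1 without (log2 change 4.77 ± 0.17). The snRNA genes RNU1-85P (0.11) and RNU1-52P (3.68, mean count 7) lie within its span on the same strand. Reads that run past their 3' ends are not separated from TEX14, and their part in its value was not tested. PCDH9 (ENSG00000184226), a protocadherin of cell adhesion at chr13:66302835-67230445 on the minus strand, spans 928 kb. Its level was 1391 with auxin against 95.7 without (log2 change 3.86 ± 0.11). The protocadherins PCDH19, which spans 119 kb, and PCDH10, which spans 4.59 kb, had levels of 46.9 and 434 with auxin against 3.01 and 33.6 without. CCDC80, the gene of a secreted matrix protein, spans 36.2 kb and had a level of 1012 with auxin against 55.9 without (log2 change 4.18 ± 0.12). TENT5C, the gene of a poly(A) polymerase, spans 22.3 kb and had 371 with auxin against 26.4 without.

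The 12 largest falls were smaller in size than the 12 largest rises, and each of the fallen genes spans 66.5 kb or more. STK39 (ENSG00000198648), a kinase that controls ion cotransporters, lies at chr2:167954023-168247595 on the minus strand. Its level fell to 17.5 with auxin, against 77.0 without (log2 change -2.13 ± 0.19, adjusted p = 4.9e-26). MAP2K6, the kinase that activates p38, fell to 7.07 with auxin, against 28.2 without. LRP2, the endocytic receptor megalin of the kidney tubule, fell to 36.5 with auxin, against 118 without. TTC13 had a level of 47.1 with auxin against 161 without, and ATXN10 one of 94.1 with auxin against 288 without. The 7 other falls were ARHGAP35, a GTPase-activating protein, CMTM4, the forkhead factor FOXP2, the microtubule-end protein SLAIN1, the potassium channel KCNQ5, the nuclear pore protein NUP210 and the Polycomb protein SCMH1. Their log2 changes ran from -1.59 for ARHGAP35 to -1.43 for SCMH1.

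**Figure D2:**
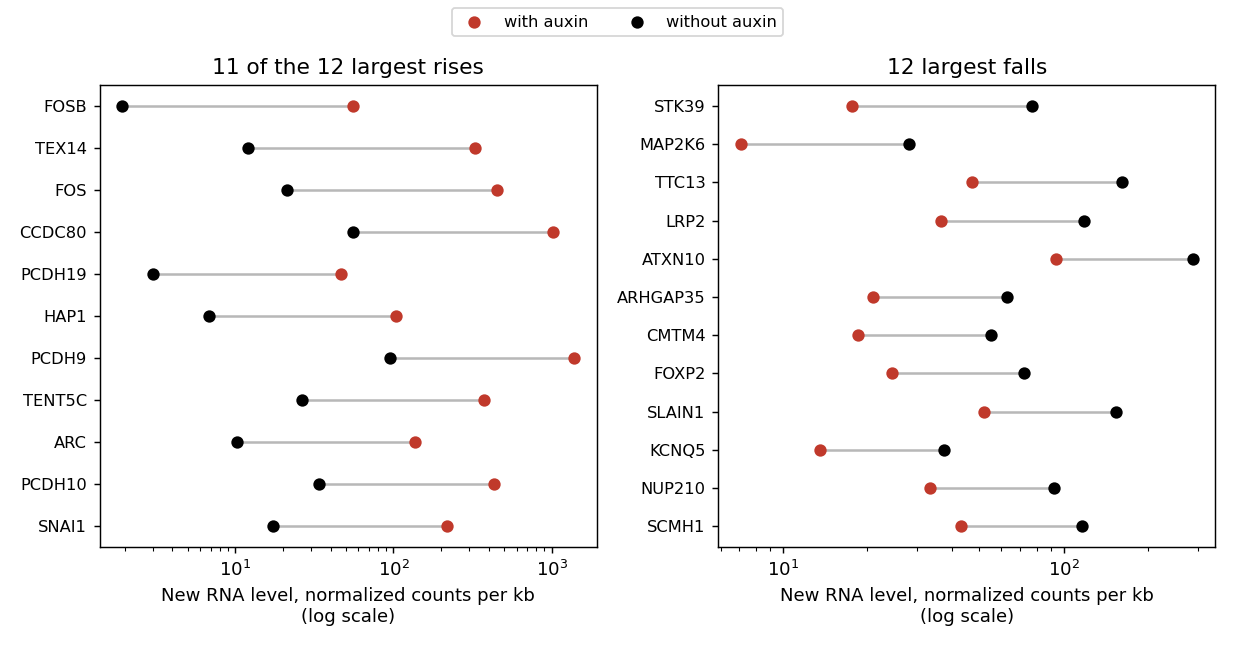
Levels of new RNA in normalized counts per kb of transcript, on log axes, for 11 of the 12 largest rises and for the 12 largest falls, with red points for cells with auxin and black points for cells without. The risen genes shown lie between 1.93 and 95.7 without auxin, and the fallen genes between 28.2 and 288.

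The sequences just upstream of 8 genes are shown because these genes carry the rises described below, FOS and FOSB for AP-1, GADD45B, JUNB, EGR1 and DUSP1 for the difference from INTS8 loss, HEXIM1 for elongation control and INTS6 for Integrator itself. They were chosen after their values were seen. Each is the 120 bases before the start listed by RefSeq (GRCh38.p14), 5′ to 3′ along the gene's strand, and capitals mark matches on either strand to 4 motifs. These are the TATA box, searched as TATAAA, and the GC box, searched as GGGCGG. The others are the CCAAT box, and the cAMP response element, a palindrome searched as TGACGTCA.
FOS: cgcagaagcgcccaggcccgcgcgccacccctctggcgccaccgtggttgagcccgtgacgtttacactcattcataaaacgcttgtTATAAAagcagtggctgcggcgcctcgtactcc
FOSB: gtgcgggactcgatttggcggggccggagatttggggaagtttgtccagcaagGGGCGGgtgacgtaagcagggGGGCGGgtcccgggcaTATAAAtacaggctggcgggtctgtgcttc
GADD45B: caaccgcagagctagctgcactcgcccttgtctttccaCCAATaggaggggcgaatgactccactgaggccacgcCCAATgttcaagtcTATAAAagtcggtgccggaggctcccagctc
JUNB: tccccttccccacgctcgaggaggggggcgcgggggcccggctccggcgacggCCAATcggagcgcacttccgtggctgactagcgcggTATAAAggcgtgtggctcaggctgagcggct
EGR1: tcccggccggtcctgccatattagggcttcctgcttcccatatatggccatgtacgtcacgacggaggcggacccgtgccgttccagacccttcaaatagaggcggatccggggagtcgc
DUSP1: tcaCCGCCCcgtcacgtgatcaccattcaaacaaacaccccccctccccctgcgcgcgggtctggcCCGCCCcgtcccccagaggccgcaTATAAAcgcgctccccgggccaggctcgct
HEXIM1: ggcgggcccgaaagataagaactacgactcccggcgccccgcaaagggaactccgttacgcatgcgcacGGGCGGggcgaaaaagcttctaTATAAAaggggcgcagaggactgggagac
INTS6: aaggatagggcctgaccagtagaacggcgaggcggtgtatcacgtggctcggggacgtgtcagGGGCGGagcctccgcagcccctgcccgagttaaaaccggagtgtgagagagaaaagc
On hg38 these are chr14:75278708-75278827 (plus) for FOS, chr19:45467876-45467995 (plus) for FOSB, chr19:2476007-2476126 (plus) for GADD45B, chr19:12791366-12791485 (plus) for JUNB, chr5:138465359-138465478 (plus) for EGR1, chr5:172771196-172771315 (minus) for DUSP1, chr17:45148355-45148474 (plus) for HEXIM1 and chr13:51453037-51453156 (minus) for INTS6. In FOS, FOSB, GADD45B, JUNB, DUSP1 and HEXIM1 the TATA match begins between 29 and 33 bases before the start. The upstream bases of EGR1 hold no match to any of the 4 motifs, and those of INTS6 hold 1 GC box match. Over the 35116 promoters of the RefSeq table, each with 250 bases before the start and 50 after, 11.5% held the TATA letters, 45.0% those of the GC box, 34.6% those of the CCAAT box and 1.85% those of the cAMP response element, on either strand. A match is a description of letters, not of a site in use. A comparison of motif shares between risen and other genes is void, because 72.6% of the 624 genes called higher with a log2 change of at least 1 have a promoter in that table, under the 80% required.

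Among Integrator's own genes, 6 of 19 were called higher and 0 lower, with a list median of 0.16 beside -0.01 for all genes. INTS6L and INTS6, alternative subunits that hold the phosphatase module, had levels of 458 and 896 with auxin against 84.4 and 286 without (log2 changes 2.44 ± 0.14 and 1.65 ± 0.11). NABP1, the single-strand DNA binding subunit of the associated SOSS complex, had a level of 889 with auxin against 195 without (log2 change 2.19 ± 0.13). Smaller rises were those of C7orf26, now named INTS15 (0.72), INTS2 (0.68) and INTS13 (0.42). The targeted gene, INTS1 (chr7:1470278-1504389, minus strand), had a level of 27.8 with auxin against 32.7 without. That difference, -0.23 ± 0.21 on the log2 scale, did not pass (adjusted p = 0.462), and a degron acts on the protein, which was not measured. The remaining subunits, among them the nuclease INTS11 (-0.21), its partner INTS9 (-0.40), INTS8 (0.08) and INTS5 (0.47, adjusted p = 0.051), had log2 changes between -0.40 and 0.47 and did not pass. The 4 PP2A core genes did not pass either, with a median of -0.10, and 0 were called.

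Immediate early genes, which cells switch on within minutes of growth factors or stress without new protein, were mostly called higher. Of 24 tested genes for immediate early transcription factors, 17 were called higher and 0 lower, with a list median of 1.61. Besides FOSB, FOS and SNAI1 these included EGR3, at a log2 change of 3.61 on a mean count of 9. Of 20 immediate early effector genes, 18 were called higher and 0 lower, with a median of 1.70. The kinase genes SGK1 and PLK2 had levels of 689 and 507 with auxin against 60.3 and 53.9 without, and HBEGF, a ligand of the EGF receptor, had 302 with auxin against 36.2 without.

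Many genes that damp such signals were called higher as well. In the list of MAP kinase and ERK feedback genes, 10 of 16 were called higher and 0 lower, with a median of 0.75. SPRY4, an inhibitor of receptor tyrosine kinase signalling, had a level of 47.5 with auxin against 7.84 without. The MAP kinase phosphatase genes DUSP5 and DUSP10 had 123 and 47.8 with auxin against 22.1 and 10.7 without, and the ETS factor ETV5 had 79.4 with auxin against 19.4 without. In the list of growth arrest and cytokine feedback genes, 17 of 21 were called higher and 0 lower, with a median of 1.08. SOCS1, which blocks JAK kinases, had the largest change there, 4.41 ± 0.35, on a mean count of 92. GADD45B, a stress-induced growth arrest gene at chr19:2476128-2478257 (plus strand), had a level of 1396 with auxin against 118 without (log2 change 3.56 ± 0.15). BTG2, an antiproliferative cofactor of mRNA deadenylation, had 416 with auxin against 71.3 without, and CDKN1A, the inhibitor p21, had 173 with auxin against 40.5 without.

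The title of the series names the integrated stress response, in which kinases phosphorylate eIF2α, general translation drops and the factor ATF4 is made. Of its 33 tested genes, 12 were called higher and 1 lower, with a median of 0.05. DDIT3, the transcription factor CHOP, had a level of 848 with auxin against 221 without (log2 change 1.94 ± 0.12). CTH, which makes cysteine, had 465 with auxin against 163 without, CEBPB, a bZIP factor, had 84.7 with auxin against 35.0 without, and VEGFA, the angiogenic growth factor, had 312 with auxin against 131 without. ATF4 was the gene called lower, at 1357 with auxin against 1978 without (log2 change -0.54 ± 0.12). ATF4 is known to be controlled mainly through its translation, which TT-seq does not measure. By role, 2 of 6 transcription factors were higher and 1 lower, 4 of 6 feedback genes were higher, and 6 of 21 metabolic targets were higher.

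Genes of the sensors that feed this response were looked at next. Of 13 genes for eIF2α kinases and RNA sensors, 1 was called higher, EIF2AK3, the kinase PERK of the endoplasmic reticulum (0.44). EIF2AK4, the amino acid sensor GCN2 (-0.46), was the 1 called lower, and the list median was -0.10. Over all tested genes 13.3% were called higher and 10.7% lower, so such counts say nothing particular about the sensors. Of 17 interferon response genes, 4 were called higher and 0 lower, with a median of 0.28, and 13 of the 17 had a mean count under 100. Among them were IFI6 (2.17, mean count 23), IRF1 (1.83) and STAT2 (0.78). Of 18 unfolded protein response genes, 7 were called higher and 0 lower, with a median of 0.26. MANF, a secreted protein of the endoplasmic reticulum, had the largest change, with a level of 720 with auxin against 325 without, followed by CRELD2 (0.95), the co-chaperone DNAJB9 (0.82) and HERPUD1 (0.82), which serves degradation from the endoplasmic reticulum.

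**Figure D3:**
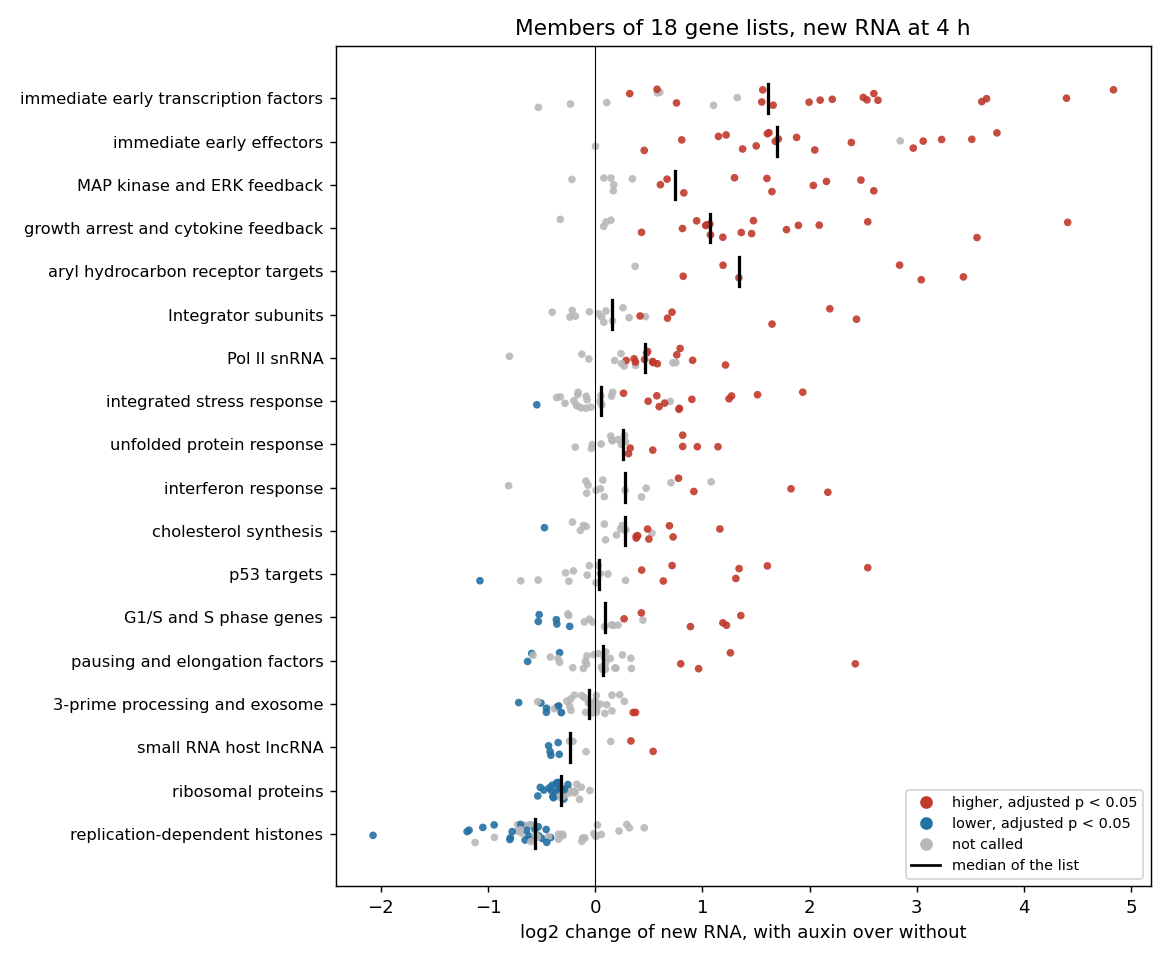
Log2 change of new RNA, with auxin over without, of every tested member of 18 gene lists, with called members in red (higher) or blue (lower) and the list median as a black bar. The 2 immediate early lists have medians of 1.61 and 1.70 and no member called lower, and the ribosomal protein and replication-dependent histone lists have medians of -0.32 and -0.56 and no member called higher.

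Of 31 tested factors that control pausing and elongation by Pol II, 4 were called higher and 3 lower, with a median of 0.07, and these shares are close to the 13.3% and 10.7% of all tested genes. HEXIM1, which holds the elongation kinase P-TEFb inactive on 7SK RNA and is itself induced when P-TEFb is released, had a level of 796 with auxin against 148 without (log2 change 2.43 ± 0.12, adjusted p = 4.28e-93). ELL2 of the super elongation complex (1.26), CTR9 of the PAF1 complex (0.97) and MEPCE, which caps 7SK (0.80), were the other rises. The falls were NELFA (-0.63) and NELFB (-0.59), both subunits of the pausing factor NELF, and LEO1 of the PAF1 complex (-0.33). RN7SK itself, a Pol III transcript, had a level of 50122 with auxin against 49059 without, and its log2 change of 0.03 ± 0.14 did not pass. Among 38 genes for 3' end processing and the exosome, 2 were called higher and 7 lower, with a median of -0.06. Over all tested genes the shares were 13.3% and 10.7%. The scaffold SYMPK (-0.71), WDR33, which reads the polyadenylation signal (-0.51), the exosome nuclease EXOSC10 (-0.45) and the cleavage factor CSTF3 (-0.45) had the largest falls, and NCBP1 (0.38) and DIS3 (0.36) were the rises.

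Integrator makes the 3' ends of small nuclear RNA. Of 23 tested Pol II snRNA genes, 13 were called higher, 10 did not pass and 0 were lower, with a median of 0.46. RNU5A-1 (chr15:65296052-65296166, plus strand), a U5 snRNA gene of the spliceosome, had a level of 17880 with auxin against 7695 without (log2 change 1.22 ± 0.11). RNU5B-1 (0.91), RNU1-2 (0.79) and RNU5E-1 (0.76) followed. Such genes have near-identical copies between which reads may be split, so the single values are uncertain, and reads that run past the 3' end into flanking sequence are not separated from mature RNA. Over all genes classed as snRNA with 100 or more mean counts, 18 of 34 were called higher, which is 52.9%, and 0 lower. Of 11 genes for snRNA transcription factors, 5 were called higher and 1 lower, with a median of 0.03. These were led by GTF2B (0.57), ICE2 of the little elongation complex (0.51) and SNAPC1 (0.43), and SNAPC3 was the one called lower (-0.43).

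Replication-dependent histone genes are the other class with a special 3' end. Of 49 tested, 21 were called lower, 28 did not pass and 0 were higher, with a median of -0.56. The linker histone gene H1-3 had a level of 1120 with auxin against 2529 without (log2 change -1.18 ± 0.15), and H1-4 had 2070 with auxin against 4277 without (-1.05 ± 0.35). H2AC15 fell by 1.19 on the log2 scale, and H4C12, with a mean count of 6, had a log2 change of -2.07. All 3 tested H1 genes were called lower, against 5 of 14 H2A, 5 of 12 H2B, 2 of 9 H3 and 6 of 11 H4 genes. Copies of one histone type are near-identical, and reads may be split between them. After INTS8 loss the histone list had a median of -0.59, with 28 of 49 called lower in the deposited table.

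Among 37 tested ribosomal protein genes, 23 were called lower, by small amounts, and 0 higher, with a median of -0.32 and a range from -0.53 to -0.05. RPL13A had a level of 1202 with auxin against 1742 without (log2 change -0.53 ± 0.12), and RPS9 (-0.51), RPL10 (-0.48) and RPS15 (-0.43) followed. In RNA-seq at 4 h the same list had a median of -0.04, with 2 of 37 called lower, and after INTS8 loss the new RNA median was -0.30, with 14 called lower. At an adjusted p under 0.01, 7 of the 37 were called lower in new RNA. The host genes of small nucleolar RNAs, which also begin at terminal oligopyrimidine starts in many cases, had 5 of 11 called lower and 2 higher, with a median of -0.24. SNHG3 (-0.43), SNHG1 (-0.42) and GAS5 (-0.41) led the falls, while SNHG12 had a level of 4162 with auxin against 2860 without (0.54).

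Cell cycle genes split. Of 21 G1/S and S phase genes, 6 were called higher and 5 lower, with a median of 0.09. Over all tested genes the shares were 13.3% and 10.7%. The cyclin E genes CCNE2 and CCNE1 had levels of 465 and 267 with auxin against 181 and 114 without, RRM2 of ribonucleotide reductase had 1207 with auxin against 528 without, and the cyclin D gene CCND1 had 205 with auxin against 111 without. The falls were E2F3 (-0.53), the licensing factor CDT1 (-0.52) and the helicase subunit genes MCM6 (-0.36), MCM7 (-0.36) and MCM3 (-0.24). Of 20 p53 targets, 7 were called higher and 1 lower, with a median of 0.04. BTG2, PLK3 (1.61), the apoptosis gene PMAIP1 (1.34) and the polymerase gene POLH (1.31) were among the rises, and the apoptosis gene BBC3 was lower (-1.07, mean count 26). The larger rise of CDKN1A is given above with the growth arrest genes.

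Targets of the aryl hydrocarbon receptor, a sensor of planar aromatic compounds, were higher in 6 of 7 cases, with a median of 1.34. The detoxifying enzyme genes CYP1A1 (3.44, mean count 37), ALDH3A1 (3.04, mean count 13) and NQO1 (1.34, mean count 35) rest on few reads, and CYP1B1 had a level of 87.2 with auxin against 12.2 without (2.84 ± 0.17). Auxin is an indole compound, and without auxin-treated parental cells its own part in these values cannot be told apart. Of 21 cholesterol synthesis genes, 8 were called higher and 1 lower, with a median of 0.28. IDI1 had a level of 474 with auxin against 211 without, and INSIG1, which holds back SREBP, had 678 with auxin against 409 without. SC5D (0.69) and NSDHL (0.50) followed, and SREBF2, the gene of an SREBP transcription factor, was lower (-0.47).

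The lists that follow are small, and over all tested genes 13.3% were called higher and 10.7% lower. Of 11 heat shock genes, 3 were higher (DNAJB1 0.61, HSPH1 0.55, BAG3 0.52) and 1 lower (HSP90AB1 -0.24), with a median of 0.05. Of 9 NF-κB feedback genes, 2 were higher, TRAF1 (1.74, mean count 30) and NFKBIE (0.87, mean count 81), with a median of 0.14. Of 13 SRF and cytoskeleton genes, 3 were higher, among them the actin crosslinker FLNA (1.64) and ZYX (0.45), with a median of 0.06. Of 14 markers of embryonic kidney, adrenal and neural cells that HEK293T expresses, 7 were higher and 0 lower, with a median of 0.39. These were led by the intermediate filament genes NEFH (5.31, mean count 13), NES (2.06), NEFM (1.44) and NEFL (0.78). Of 19 markers of blood, endothelium, fibroblasts, colon and liver, 4 have a p in this comparison, and 1 was higher, CORO1A (2.07, mean count 21). In the untreated RNA-seq libraries the 15 HEK293T markers in the table summed to between 33452 and 33985 normalized counts in INTS1-AID cells and between 28376 and 31088 in parental cells. The 4 markers of other cell types in the table summed to between 1189 and 1270 in INTS1-AID cells and between 1168 and 1379 in parental cells. The part of such cells in the results was not tested.

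The share of genes called lower was highest among the genes with the longest span, taken from the deposited coordinates. Among genes averaging 100 counts or more, 29.2% of the 531 genes of 200 kb and over were called lower and 11.9% higher. In the bin from 100 to 200 kb, 21.5% were lower and 11.8% higher, and from 10 to 20 kb, 7.30% were lower and 15.8% higher. From 2 to 10 kb, 9.10% were lower and 21.3% higher, and under 2 kb, 14.1% were lower and 20.2% higher. This shortest bin holds 34 snRNA genes, 18 of them higher and 0 lower, and 36 replication-dependent histone genes, 0 higher and 19 lower. For protein-coding genes alone under 2 kb, 17.6% were lower and 10.6% higher. The median log2 change was -0.17 at 200 kb and over and 0.04 from 2 to 10 kb. These shares are a description, since genes are not replicates and the bins differ in mean count, with medians of 370 at 200 kb and over and 288 from 2 to 10 kb.

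**Figure D4:**
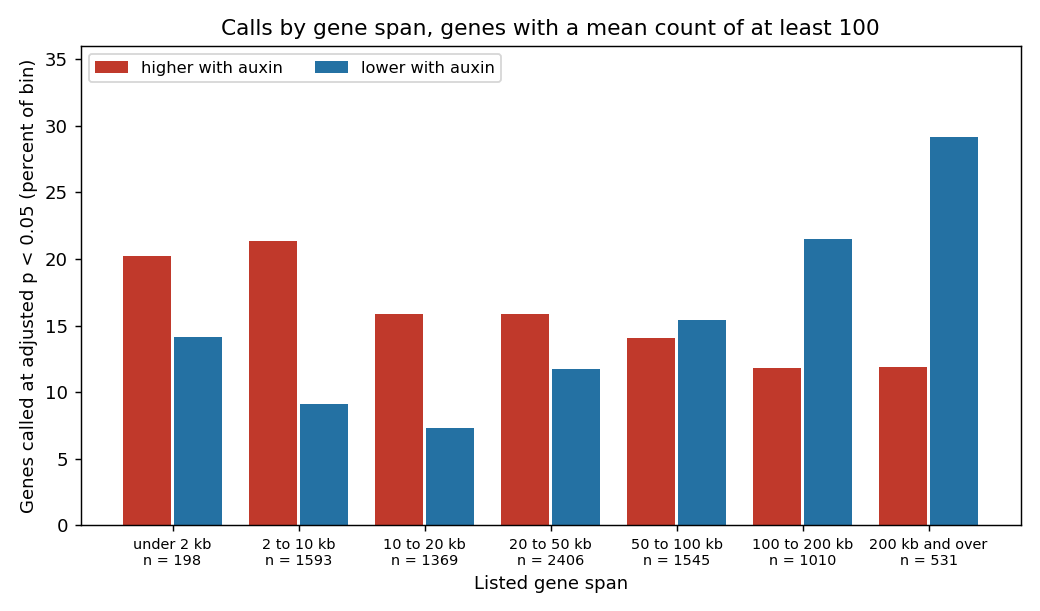
Percent of genes called higher (red) and lower (blue) with auxin in bins of gene span, among genes averaging 100 counts or more, with the number of genes under each bin. The share called lower is 7.30% from 10 to 20 kb and 29.2% at 200 kb and over, and the share called higher is 21.3% from 2 to 10 kb and 11.9% at 200 kb and over.

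By exon number, the share called higher was largest for genes with 1 exon. Of 152 protein-coding genes with 1 exon and 100 or more mean counts, 30.3% were called higher and 13.8% lower. Of 1121 genes with 2 to 4 exons, 22.3% were higher and 8.83% lower, and of 1358 genes with 21 exons or more, 12.2% were higher and 19.6% lower. The authors' rises had a median span of 13.6 kb, and their falls one of 96.7 kb, beside 25.7 kb for all tested genes. Among 1119 genes for long noncoding RNA (lncRNA), 11.8% were called higher and 3.04% lower. With 100 or more mean counts these shares were 23.9% and 13.4% of 134. LINC02575 had a level of 690 with auxin against 92.5 without (log2 change 2.90 ± 0.15), and OIP5-AS1 had 48.0 with auxin against 87.2 without (-0.86 ± 0.11). Both were chosen after their values were seen, as the largest lncRNA rise and fall at that mean count. The sources used here do not say whether TT-seq counting used strand, so reads of a lncRNA and of an overlapping gene cannot be told apart.

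New RNA was then set against RNA-seq of INTS1-AID cells at 4 h, which asks where the amount made and the amount present differ. In RNA-seq at 4 h, 19.2% of genes were called higher and 19.2% lower, and at 12 h 21.9% and 22.3%. Of the genes called higher in new RNA, 84.1% were also called higher in RNA-seq at 4 h, which is 56.3% of that list. Of those called lower, 69.8% were also called lower, which is 37.4% of that list. Called in opposite directions were 3 genes higher in new RNA and 2 lower. The new RNA changes and the 4 h RNA-seq changes had a Pearson correlation of 0.89 across 8652 genes averaging 100 counts or more, given as a description across genes, which are not independent. The shared sign helped set the direction of new RNA. Shared calls, few opposite calls and the positive correlation therefore partly restate that reading, and the differences below rest on it. Whether the 2 assays used the same cultures is not given.

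The difference itself was tested per gene with a Wald z test on the deposited log2 changes and their implied standard errors, with Benjamini-Hochberg adjustment over 13876 genes. New RNA minus RNA-seq was positive in 75 genes (0.541%) and negative in 101 (0.728%). The negative differences were mostly falls that were larger in new RNA. Of these 101 genes, 80 were called lower in new RNA, and their median log2 change was -0.87 in new RNA and -0.15 in RNA-seq. STK39 had -2.13 in new RNA and -0.25 in RNA-seq (difference -1.89 ± 0.21, adjusted p = 2.82e-15). MAP2K6 had -2.00 in new RNA and -0.36 in RNA-seq. LRP2 had -1.69 in new RNA and -0.27 in RNA-seq, and ATXN10 had -1.62 in new RNA and -0.26 in RNA-seq. At 12 h, their RNA-seq log2 changes were -1.68 for STK39, -2.02 for MAP2K6, -1.21 for LRP2 and -0.62 for ATXN10. These 4 were named for their difference at 4 h, and the 12 h values rest on the sign as taken (with it turned they would be 1.68, 2.02, 1.21 and 0.62 in the same order).

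Over the 143 falls that the authors called, the median log2 change was -1.19 in new RNA at 4 h, -0.62 in RNA-seq at 4 h and -1.09 in RNA-seq at 12 h. Over the 477 rises it was 1.52 in new RNA at 4 h, 1.55 in RNA-seq at 4 h and 1.71 in RNA-seq at 12 h. The first value of each trio chose the genes and is a description, and the difference between the times was not tested here.

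CCDC80 had a log2 change of 4.18 in new RNA and 6.48 in RNA-seq (difference -2.30 ± 0.21, adjusted p = 4.31e-24). TGFB2, a growth factor of the TGF-β family, had a level of 15.8 with auxin against 23.9 without in new RNA (-0.60 ± 0.20), yet 1.27 in RNA-seq (difference -1.87 ± 0.33). Positive differences included RYR2, a calcium channel of 792 kb, with 1.67 in new RNA and 0.70 in RNA-seq, and PRKCA, a protein kinase C gene of 508 kb, with 1.18 in new RNA and 0.22 in RNA-seq. LTBP1, which stores latent TGF-β in the matrix, had 1.11 in new RNA and 0.17 in RNA-seq. CSRP2, a LIM domain protein, had 1.84 in new RNA and 0.93 in RNA-seq, and CTH had 1.52 in new RNA and 0.64 in RNA-seq. TMEM129 had 0.24 in new RNA, which did not pass, and -0.86 in RNA-seq (difference 1.10 ± 0.23). Of the 75 positive genes, 60 were called higher in new RNA. Among the lists, ASNS, SESN2 and CTH of the integrated stress response, STAT2 of the interferon response, and SQLE and INSIG1 of cholesterol synthesis had a positive difference, and 0 genes of those 3 lists had a negative one.

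**Figure D5:**
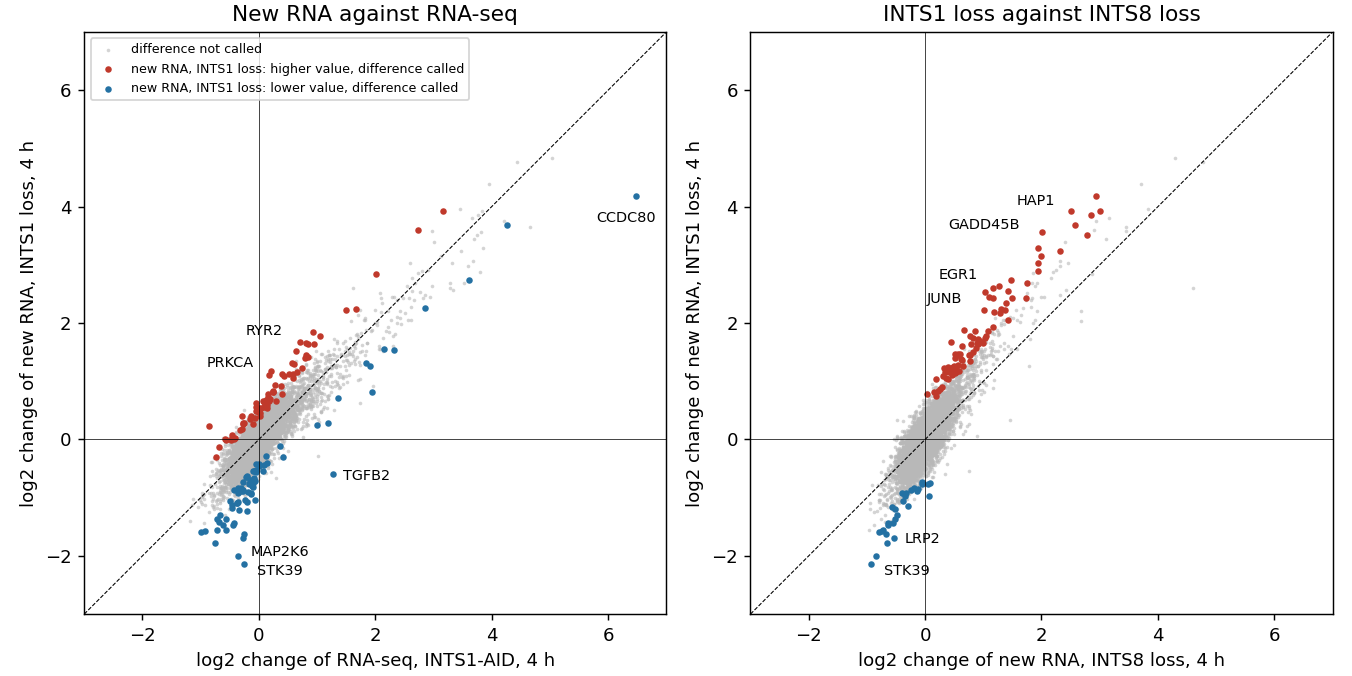
Log2 change of new RNA after INTS1 loss, on the vertical axes, against RNA-seq of INTS1-AID cells at 4 h (left) and new RNA after INTS8 loss at 4 h (right), for genes averaging 100 counts or more; the dashed line marks equal values. Red and blue points have a called difference, positive and negative, and in the right panel each called gene lies farther from 0 after INTS1 loss than after INTS8 loss.

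Loss of INTS8 asks whether the phosphatase side of Integrator gives the same new RNA. The deposited INTS8 comparison called 6.56% of its genes higher and 2.87% lower. Its listed level fitted the numerator of its fold with a median error of 0.00087, so its direction was taken from the shared sign with INTS1 loss and not from the level. With the INTS8 sign turned, 0 calls would be shared in either direction, and all INTS8 values and differences below rest on the sign as taken. Of the genes called higher after INTS1 loss, 42.6% were called higher after INTS8 loss, which is 87.9% of the INTS8 list. Of those called lower, 21.2% were called lower after INTS8 loss, which is 81.0% of the INTS8 list. That 0 genes were called in opposite directions restates how the sign was taken. The levels without auxin of the INTS1 and INTS8 comparisons were centred on their median shift. Over 4916 genes they differed by a median of 0.14 in size on the log2 scale with the INTS8 sign as taken. With that sign turned the median was 0.21. Whether the 2 comparisons share control libraries was not tested.

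INTS1 minus INTS8 was positive in 83 genes (0.612%) and negative in 33 (0.243%) by the same Wald z test over 13564 genes. All 83 were called higher after INTS1 loss and 73 of them after INTS8 loss. All 33 were called lower after INTS1 loss and 19 of them after INTS8 loss. The positive genes had a median span of 6.23 kb, with median log2 changes of 1.66 after INTS1 loss and 0.83 after INTS8 loss. The negative genes had a median span of 74.1 kb, with medians of -1.30 after INTS1 loss and -0.51 after INTS8 loss.

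The largest positive differences included those of some immediate early and stress genes. GADD45B had 3.56 after INTS1 loss and 2.01 after INTS8 loss (difference 1.55 ± 0.42, adjusted p = 0.029). The AP-1 gene JUNB had 2.54 after INTS1 loss and 1.02 after INTS8 loss (difference 1.51 ± 0.29, adjusted p = 0.000148). The zinc finger factor EGR1 had 2.60 after INTS1 loss and 1.16 after INTS8 loss, and HAP1 had 3.93 after INTS1 loss and 2.51 after INTS8 loss. SLC10A3 had 2.63 after INTS1 loss and 1.27 after INTS8 loss, and the Notch ligand DLL4 had 3.29 after INTS1 loss and 1.94 after INTS8 loss. In the immediate early effector list 7 of 19 differences were positive, in the growth arrest list 5 of 21, and in both 0 were negative. Among immediate early transcription factors 2 of 24 were positive, and in the integrated stress response list 1 of 33, with 0 negative in either. The differences of FOSB, FOS and SNAI1 did not pass (adjusted p = 0.959, 0.422 and 0.996). In the list of MAP kinase and ERK feedback genes 1 of 15 was positive, that of DUSP1, and 0 were negative. HEXIM1 had 2.43 after INTS1 loss and 1.50 after INTS8 loss (difference adjusted p = 0.000148). Of the Integrator genes, INTS6L had 2.44 after INTS1 loss and 1.74 after INTS8 loss, and NABP1 had 2.19 after INTS1 loss and 1.19 after INTS8 loss, with both differences called, while that of INTS6 was not (adjusted p = 0.0726).

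STK39, LRP2, MAP2K6, TTC13 and ATXN10 led the negative differences, between -1.21 for STK39 and -0.95 for ATXN10. LHX4, a homeobox factor of pituitary development, had -0.98 after INTS1 loss and 0.07 after INTS8 loss (difference -1.05 ± 0.25, adjusted p = 0.0063). Large rises with no called difference included that of TEX14, with 4.77 after INTS1 loss and 4.78 after INTS8 loss (difference -0.01 ± 0.24, adjusted p = 0.997). The snRNA genes RNU1-85P and RNU1-52P lie within the TEX14 span, and their part in these values was not tested. SPRY4 and ETV5 had 2.60 and 2.04 after INTS1 loss and 4.60 and 2.68 after INTS8 loss. Their differences did not pass (adjusted p = 0.288 and 0.894), with standard errors of 0.75 and 0.48. The degree of INTS1 and INTS8 depletion was not measured in these data, so the size of the responses cannot be tied to the subunit.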

How the data were processed

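TT-seq of cells after 4 h with auxin was compared with TT-seq of cells without auxin in a table of comparisons that the authors deposited. Per the file headers, it holds log2 fold changes, p-values and adjusted p-values of each comparison, which equal Benjamini-Hochberg values over its own genes within 3.77e-15. Its score columns, also deposited by the authors, hold mean counts rounded to whole numbers, calls, and a log2 level per kb of transcript. The signal values, normalized counts per library that the authors deposited, cover only the 6 untreated RNA-seq libraries, and served the marker check. TranscriptLength is the authors' length in bases. Per the submitters' processing notes the tools were STAR 2.7.3a and DESeq2 and the builds hg38 and dm6, each without a stated role, and for RNA-seq the labels give ribosomal RNA depletion and stranded dUTP libraries. For TT-seq the sources used here give no pulse, counting or depth, so the depth behind its values is unknown beyond the mean count per gene. Every column of values per library was tied to a sample.

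No test could be refitted. Genes were called at the authors' adjusted p under 0.05. Standard errors were implied by the log2 change and p (for 12 genes whose RNA-seq p is listed as 0 a z of 38 was entered). Differences between comparisons were tested with a Wald z test with Benjamini-Hochberg adjustment, which takes the comparisons as independent. It was run on data simulated with independent errors of the implied size, which checks the calculation but neither the independence nor the errors themselves. Alternatives were an adjusted p under 0.01, a size of at least 1, mean count filters of 10 and 100, centring on the median, leaving out genes that share reads, and, chosen after seeing the data, the authors' own calls and a turned INTS8 sign. Named genes are the 12 largest rises and falls with a mean count of at least 100, leaving out clone names, all Integrator subunits, the 4 called members with the largest change in each of 26 lists, and the 6 largest differences each way; a few genes that this rule names are not reported here. The members and lists were chosen with earlier results of these data known. Exon counts came from GENCODE 29 and promoters from RefSeq. Python 3.11.15, numpy 2.4.6, scipy 1.17.1 and pandas 2.3.3 were used.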

Additional observations from a re-analysis of the deposited data

Results flagged for a closer look

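The change of new RNA differed between INTS1 loss and INTS8 loss in 116 genes by the Wald z test with Benjamini-Hochberg adjustment, 83 with a positive and 33 with a negative difference. Of the named genes, the log2 change after INTS1 loss minus that after INTS8 loss was 1.55 for GADD45B, 1.51 for JUNB, 1.44 for EGR1, 1.42 for HAP1, 1.37 for SLC10A3 and 1.35 for DLL4. It was -1.21 for STK39, -1.16 for LRP2, -1.15 for MAP2K6, -1.12 for TTC13, -1.05 for LHX4 and -0.95 for ATXN10. The test takes both comparisons as independent, and the depletion of either protein was not measured here.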

How the results depend on the processing

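No paired analysis was possible because the comparison columns carry no values per replicate, and for the same reason no library could be left out. Where changes also had to reach 1 on the log2 scale, 624 genes were called higher and 220 lower, and by the authors' own calls 477 and 143. At an adjusted p under 0.01, 917 genes were called lower, and 39 instead of 70 list entries. New RNA minus RNA-seq was then positive in 43 genes and negative in 58, and at a difference of at least 1 in 1 and 28. INTS1 minus INTS8 was positive in 53 and negative in 13 at an adjusted p under 0.01, and 22 and 9 at a difference of at least 1. Over all tested genes, with no mean count filter, 25.2% of genes of 200 kb and over were called lower. With the INTS8 sign turned, chosen after seeing the data, INTS1 minus INTS8 would be positive in 2252 genes and negative in 1975. Apart from the turned INTS8 sign, which reverses each INTS8 value, no result changed direction under the alternatives run. Centring on the median kept all 4 counts of the new RNA and the lists and all 4 counts of differences within 1.5 times. A stricter threshold left 7 of the 37 ribosomal protein genes called lower. INTS5 passed with a mean count filter or centring, and INTS14 with a mean count of at least 100. Mean counts under 100 give wide errors, with a median standard error of 0.31 between 10 and 99.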

Other observations

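Protocadherins outside the gene clusters, adhesion proteins of the nervous system, were looked at after 3 of them were seen among the largest rises, so their count supports nothing. Of 8 tested in new RNA, 5 were called higher and 0 lower. Besides PCDH19, PCDH9 and PCDH10 these were PCDH8 (log2 change 2.92, mean count 23) and PCDH20 (1.04), while PCDH18 (0.45), PCDH7 (0.03) and PCDH1 (-0.06) did not pass.

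Neighbouring genes were looked at after the main results were seen. Of 1960 tested genes that begin within 10 kb downstream of another tested gene on the same strand, 9.23% were called higher and 9.90% lower. Where the upstream gene was called higher, 12.1% of 198 were higher and 13.6% lower, and where it was one of the authors' rises, 6.38% of 47 were higher and 14.9% lower. Of 2654 genes with a divergent start within 1 kb, 14.1% were called higher and 7.76% lower. Where the divergent partner was called higher, 8.53% of 375 were higher and 11.2% lower, and where it was called lower, 20.4% of 206 were higher and 7.77% lower. Each divergent pair is counted from both ends, so the 11.2% and the 20.4% are the same 42 pairs and not separate results. These shares are a description and were not tested.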
